A study of Mus musculus with 2 samples.

Results

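The 9 genes described here are regulators of muscle gene expression: the myogenic bHLH factors *Myf6*, *Myod1* and *Myog*, the MEF2 factors *Mef2a*, *Mef2c* and *Mef2d*, the homeobox factor *Six4*, and the EYA cofactors *Eya1* and *Eya4*. They were taken by symbol and are 9 of the 32285 genes in both count matrices. Single-nucleus RNA sequencing (snRNA-seq), which counts RNA molecules in single nuclei by unique molecular identifiers (UMIs), had been done on tibialis anterior (TA) muscle. Nuclei came from the right and left TA of 2 male mice per genotype, 6 weeks old and on a C57BL/6 background. M-*Bcl6* KO mice were *Myf6*-Cre+ *Bcl6* fl/fl and M-*Bcl6* WT mice were littermates that were *Myf6*-Cre+ *Bcl6* wt/wt, so both groups carried a Cre driven by the promoter of one of the genes described here. Nuclei of each genotype were pooled into 1 library, so there is no replicate of a genotype, no test was run, and intervals are 95% intervals for counting error only.

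Myogenic bHLH factors bind DNA as dimers with E proteins and start the muscle program: *Myod1* and *Myf5* act in activated muscle stem cells, *Myog* drives terminal differentiation, and *Myf6* (MRF4) is the member expressed in mature fibers. MEF2 factors act with them on muscle genes and respond to calcium and nerve activity. *Six4* binds DNA and recruits EYA proteins, which have no DNA-binding domain of their own, and this pair is known for its part in the fast fiber program.

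The WT-labelled library held 3798 barcodes and 11974138 UMIs and the KO-labelled library 4096 barcodes and 12026013 UMIs, of which 3674 and 3944 nuclei were kept. The libraries shared 6 barcode sequences. Myonuclei were 2414 and 3090 nuclei with a median of 3128 and 2714 UMIs. *Bcl6* itself stood at 168 UMIs per 1000000 UMIs of its class (CPM) in myonuclei of the WT-labelled library and at 502 CPM in those of the KO-labelled library. The floxed alleles remove only some of its exons and a UMI count over the whole gene includes RNA from outside them, so this level does not check the deletion. The level was higher with the KO label, and the labels could not be checked from it, so the libraries are called by their labels throughout.

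In the GENCODE annotation of GRCm38, *Myf6* (ENSMUSG00000035923) lies on chromosome 10 from 107492853 to 107494737, 6718 bases from *Myf5* with 0 protein-coding genes between them. *Six4* (ENSMUSG00000034460) lies on chromosome 12 from 73099609 to 73113456. The bHLH genes are short (*Myod1*, ENSMUSG00000009471, spans 2.63 kb and *Myog*, ENSMUSG00000026459, 2.56 kb), whereas *Mef2a* (ENSMUSG00000030557) spans 142 kb, *Mef2c* (ENSMUSG00000005583) 163 kb, *Eya1* (ENSMUSG00000025932) 141 kb and *Eya4* (ENSMUSG00000010461) 248 kb. *Mef2d* (ENSMUSG00000001419) spans 29.7 kb. Long genes give nuclear RNA more intronic sequence to be counted, so levels are compared for 1 gene between classes and never between genes. *Mef2a* overlaps *Lysmd4* and *Mef2d* overlaps 1700113A16Rik on the opposite strand, and the strand setting of the counting is not given in the sources used here.

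Promoter sequences from RefSeq (GRCm38.p6) reach from upstream of a start site to just past it and were matched for 6 of the 9 genes, with no entry for *Myf6*, *Myod1* and *Eya1*. The promoters of *Myog*, *Mef2a* and *Mef2c* are shown for these reasons. *Myog*, with *Myod1*, was the most raised in stem cell over fiber nuclei, and *Mef2a* held the MEF2 match. *Mef2c* had the lowest ratio of the KO-labelled over the WT-labelled library among the 7 regulators with at least 200 UMIs in myonuclei. Capitals mark exact matches, on either strand, to the E-box (CANNTG) bound by bHLH factors, the MEF2 motif (YTAWWWWTAR), and the MEF3 motif (TCAGGTT) bound by *Six4*. N stands for any base, Y for C or T, W for A or T, and R for A or G. A site that departs from these letters is not marked.
Myog, chr1:134289754-134290053, forward strand: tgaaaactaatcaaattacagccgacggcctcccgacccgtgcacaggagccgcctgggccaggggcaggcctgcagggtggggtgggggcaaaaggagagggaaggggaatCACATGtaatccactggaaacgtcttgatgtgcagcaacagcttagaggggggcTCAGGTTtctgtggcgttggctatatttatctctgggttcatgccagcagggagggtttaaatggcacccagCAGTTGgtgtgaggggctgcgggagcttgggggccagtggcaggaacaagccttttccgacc
Mef2a, chr7:67372809-67373108, reverse strand: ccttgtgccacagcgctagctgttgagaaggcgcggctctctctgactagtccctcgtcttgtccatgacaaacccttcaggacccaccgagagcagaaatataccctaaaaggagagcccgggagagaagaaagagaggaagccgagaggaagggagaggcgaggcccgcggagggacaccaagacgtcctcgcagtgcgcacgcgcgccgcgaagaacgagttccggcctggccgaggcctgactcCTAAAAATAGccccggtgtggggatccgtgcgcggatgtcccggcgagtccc
Mef2c, chr13:83503784-83504083, forward strand: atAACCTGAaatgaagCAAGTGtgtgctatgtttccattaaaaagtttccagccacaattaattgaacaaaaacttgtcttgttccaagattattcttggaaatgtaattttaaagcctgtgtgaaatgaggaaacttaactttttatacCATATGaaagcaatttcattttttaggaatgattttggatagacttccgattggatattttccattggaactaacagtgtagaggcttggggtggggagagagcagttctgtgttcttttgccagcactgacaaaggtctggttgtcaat
The *Myog* window held E-boxes that begin 138 and 12 bases before the start and a MEF3 match that begins 84 bases before it. Its stretch ctatatttat misses the MEF2 letters only at the last base and is not marked, so a MEF2 site there is not excluded. The *Mef2a* window held a MEF2 match that begins 2 bases before the start. *Mef2c* has 3 listed promoters, and the one nearest the annotated gene start is shown. This *Mef2c* window held E-boxes 234 and 100 bases before the start and a MEF3 match, on the other strand, 248 bases before it. Of the 3 promoters, 2 held an E-box and 1 a MEF3 match. No match to another motif overlapped the matches in the 3 windows shown. Over 32851 promoters of the same length, 72.3% held an E-box, 3.19% a MEF2 match and 4.07% a MEF3 match. The BCL6 motif (TTCCTNGAA), held by 1.59% of promoters, was not matched in the 6 windows, which says only that these letters are not there.

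Each myonucleus was placed by its main *Myh* gene, the myosin heavy chain that marks a fiber type: *Myh4* for type IIB, *Myh1* for IIX and *Myh2* for IIA. *Myh4*-main myonuclei were 704 in the WT-labelled library and 611 in the KO-labelled library, *Myh1*-main 1161 and 1176, and *Myh2*-main 234 and 482. The main gene was the one with the most UMIs, with no minimum set. Median *Myh* UMIs were 7 and 4 in *Myh4*-main, 18 and 10 in *Myh1*-main and 14 and 11 in *Myh2*-main myonuclei. Placement thus rests on fewer UMIs in the KO-labelled library. Ties (39 and 66) and *Myh7*-main myonuclei (2 and 19) were kept apart. Myonuclei without a *Myh* UMI were 274 and 736, or 11.4% and 23.8% of myonuclei, so the mix of classes differed between the libraries. Muscle stem cell (MuSC)-like nuclei, named from markers that include *Pax7*, were 186 and 125, with a median of 1255 and 1315 UMIs. The 10 myonuclear markers stood in them at 11.4% and 9.46% of their level in myonuclei, and the part of this muscle RNA in their other values was not tested.

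**Figure D1:**
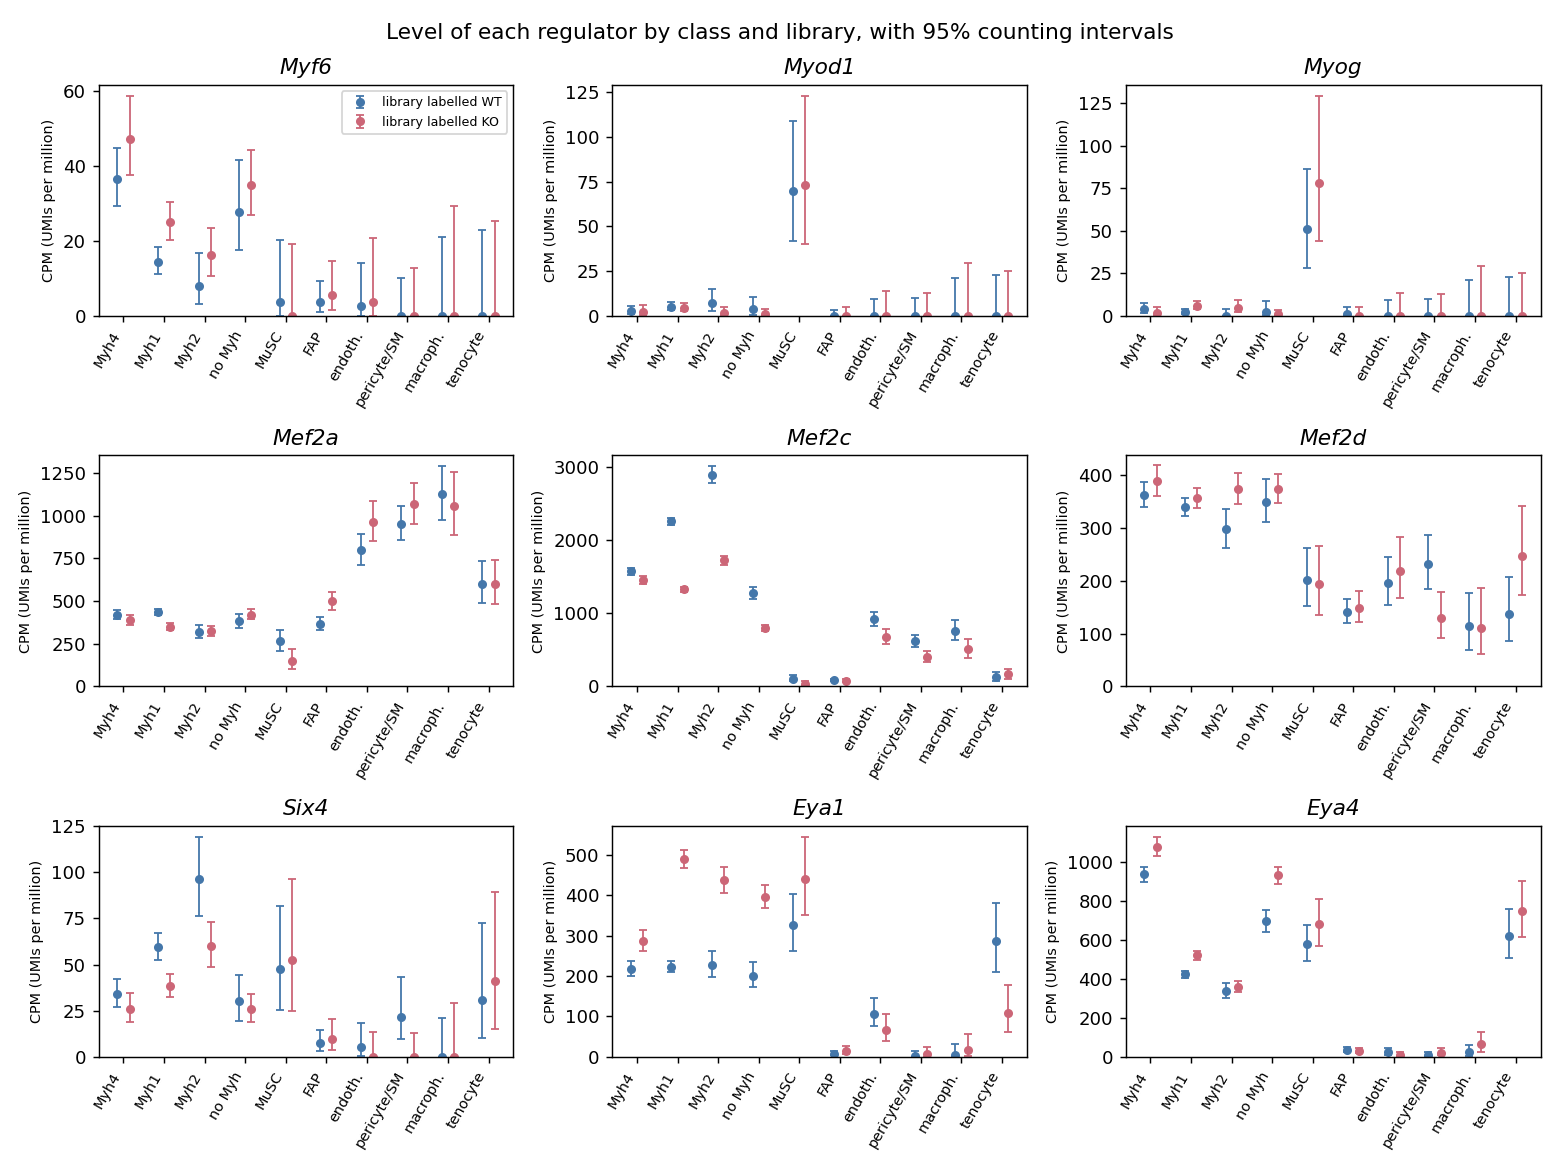
Level of each regulator (CPM, vertical axes from 0) in main *Myh* classes, myonuclei without a *Myh* UMI and other classes, with points for the 2 libraries and bars for exact Poisson 95% intervals. *Myod1* and *Myog* stand between 51.3 and 78.4 CPM in MuSC-like nuclei and at most at 6.94 CPM in the 3 main *Myh* classes, *Mef2c* and *Eya4* are spread over fiber classes, and *Mef2a* is highest in macrophage-, pericyte- and endothelial-like nuclei.

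*Myod1* and *Myog* had their highest levels, among classes with at least 100 nuclei of each library, in MuSC-like nuclei. *Myod1* stood at 69.7 CPM (41.9 to 109) in MuSC-like nuclei of the WT-labelled library and at 73.2 (40.0 to 123) in those of the KO-labelled library, against 4.51 and 2.90 CPM in myonuclei. It was thus 15.4-fold and 25.2-fold higher in MuSC-like nuclei, with log2 ratios of 3.95 (3.08 to 4.77) and 4.66 (3.62 to 5.63). *Myog* stood at 51.3 and 78.4 CPM in MuSC-like nuclei against 2.59 and 3.83 CPM in myonuclei, a log2 ratio of 4.31 (3.23 to 5.33) and 4.36 (3.38 to 5.26). These levels rest on 19 and 14 *Myod1* UMIs and on 14 and 15 *Myog* UMIs, and the 2 libraries did not differ beyond counting error for either gene.

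After thinning each nucleus to 1000 UMIs, 8.26% of MuSC-like nuclei (4.03 to 14.7) had a *Myod1* UMI in the WT-labelled library and 9.20% (4.05 to 17.3) in the KO-labelled library, and 8.60% and 10.4% had one without thinning. In fibro-adipogenic progenitor (FAP)-like nuclei, which should lack the gene and had a median of 1956 and 1747 UMIs, 0 of 401 and 0 of 268 thinned nuclei had one, which allows a share of up to 0.748% and 1.12%. *Myod1* had no UMI in endothelial-, pericyte-, macrophage- and tenocyte-like nuclei of either library. In a cluster of 12 and 10 nuclei that was left unnamed, led by cell cycle genes and with *Pax7* at 447 and 711 CPM, *Myod1* had 3 and 4 UMIs.

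*Myog* UMIs were mostly found in nuclei without a *Pax7* UMI. *Pax7*, the transcription factor that marks muscle stem cells, had a UMI in 0 of the 6 MuSC-like nuclei with *Myog* in the WT-labelled library and in 117 of the 180 without it. In the KO-labelled library it was found in 1 of 10 with *Myog* and in 59 of 115 without. *Mymk*, a membrane protein needed for myoblast fusion, had a UMI in 2 of the 6 nuclei with *Myog* and in 3 of the 180 without in the WT-labelled library, and in none of the KO-labelled library. The nuclei with *Myog* were no shallower, with medians of 1462 and 1787 UMIs against 1236 and 1306 in those without. In the WT-labelled library 6 of the 14 *Myog* UMIs came from 1 nucleus. *Eya1* had a UMI in 1 of the 6 nuclei with *Myog* and 56 of the 180 without in that library, and in 0 of 10 and 43 of 115 in the other. *Myod1* and *Myog* UMIs met in 0 and 1 nucleus.

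*Myf6*, the bHLH factor of mature fibers, went the other way. It had 194 and 285 UMIs in myonuclei, or 21.9 CPM (18.9 to 25.2) and 29.5 CPM (26.2 to 33.1), against 1 and 0 UMIs in MuSC-like nuclei. In the WT-labelled library the log2 ratio of MuSC-like nuclei over myonuclei was -2.58 (-7.89 to -0.08). In the KO-labelled library, with 3 UMIs in place of 0, *Myf6* was 1.88-fold lower in MuSC-like nuclei. The exact interval of its log2 ratio there reached up to -0.60. Pericyte-, macrophage- and tenocyte-like nuclei had 0 UMIs of *Myf6* in both libraries.

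With a minimum of 50 UMIs over both classes and libraries, 9 of 9 regulators entered the comparison of MuSC-like nuclei with myonuclei, and 4 were 2-fold or more apart the same way in both libraries: *Myod1* and *Myog* higher, *Myf6* and *Mef2c* lower. Over all 10706 genes, 19.4% were higher and 15.4% lower by the same rule, so differences of this size were common. The minimum was set after the values were seen. At 200 UMIs, the minimum of the library comparison, *Myod1* and *Myog* leave the comparison and 2 regulators remain, both lower, of 7 that entered, against 15.3% higher and 16.0% lower over all genes. *Myf6* is counted as lower on 0 UMIs in the KO-labelled library, where its bound of 1.88-fold does not reach 2-fold. Clustering at resolution 1.0 set 22 and 18 of the MuSC-like nuclei apart in an unnamed group. This group held 6 of 6 and 8 of 10 of the nuclei with *Myog*, and the remaining 164 and 107 MuSC-like nuclei held 0 and 2 *Myog* UMIs, so *Myog* no longer passed.

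*Mef2c* differed most between stem cell and fiber nuclei among the MEF2 genes. It stood at 2031 CPM (2002 to 2061) and 1312 CPM (1289 to 1335) in myonuclei and at 106 CPM (71.2 to 153) and 31.4 CPM (11.5 to 68.3) in MuSC-like nuclei. RNA carried over from myonuclei, predicted from the level of the myonuclear markers, would give 232 and 124 CPM there, above the level found, and its part in that level was not tested. *Mef2d* stood at 344 and 370 CPM in myonuclei and at 202 and 193 CPM in MuSC-like nuclei, and *Mef2a* at 413 and 367 CPM against 264 and 152 CPM.

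*Six4* and the EYA genes were less than 2-fold apart between the kinds of muscle nuclei in both libraries. *Eya4* stood at 584 and 682 CPM in myonuclei and at 579 and 680 CPM in MuSC-like nuclei, with log2 ratios of -0.01 (-0.25 to 0.22) and -0.01 (-0.27 to 0.25). *Six4* stood at 47.7 CPM (25.4 to 81.5) and 52.3 CPM (25.1 to 96.2) in MuSC-like nuclei against 52.8 and 37.5 CPM in myonuclei. These MuSC-like levels rest on 13 and 10 UMIs. The log2 ratios of *Six4*, -0.15 (-1.07 to 0.64) and 0.48 (-0.59 to 1.38), have intervals that reach past 2-fold. With the KO label its ratio ran from -1.55 to 1.11 over the processing settings. *Eya1* stood at 326 and 439 CPM in MuSC-like nuclei against 220 and 423 CPM in myonuclei.

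Between fiber classes, 3 of the 7 regulators with at least 200 UMIs differed 1.5-fold or more in both libraries. *Six4* was higher in *Myh2*-main than in *Myh4*-main myonuclei, and *Myf6* and *Eya4* were lower. Over all 4330 genes with enough UMIs, 12.8% were higher and 11.3% lower by this rule.

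*Six4* stood at 34.1 CPM (27.2 to 42.1) in *Myh4*-main, 59.5 (52.6 to 67.0) in *Myh1*-main and 96.0 (76.5 to 119) in *Myh2*-main myonuclei of the WT-labelled library. In the KO-labelled library it stood at 26.0 (19.0 to 34.8), 38.2 (32.4 to 44.7) and 59.8 (48.7 to 72.8). The order *Myh4*, *Myh1*, *Myh2* was the same in both, and *Myh2*-main was 2.82-fold over *Myh4*-main (log2 interval 1.04 to 1.95) with the WT label and stood at a log2 ratio of 1.20 (0.68 to 1.74) with the KO label.

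*Eya4* ran in the reverse order. It stood at 935 CPM in *Myh4*-main, 422 in *Myh1*-main and 338 in *Myh2*-main myonuclei of the WT-labelled library, and at 1076, 519 and 358 CPM in the KO-labelled library. The log2 ratio of *Myh2*-main over *Myh4*-main was -1.47 (-1.65 to -1.29) and -1.59 (-1.72 to -1.45). *Six4* and *Eya4* thus had opposite orders over the fiber classes. *Eya1* had neither order. In the WT-labelled library it stood at 218, 223 and 228 CPM in *Myh4*-, *Myh1*- and *Myh2*-main myonuclei, whose intervals overlap. In the KO-labelled library it stood at 287, 488 and 437 CPM, so that *Myh2*-main was 1.52-fold and *Myh1*-main 1.70-fold over *Myh4*-main myonuclei, and the difference between the libraries was not tested.

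*Myf6* was highest in *Myh4*-main myonuclei, at 36.5 CPM and 47.4 CPM, against 14.5 and 25.0 CPM in *Myh1*-main and 8.10 and 16.2 CPM in *Myh2*-main myonuclei. The log2 ratio of *Myh2*-main over *Myh4*-main was -2.17 (-3.53 to -1.07) on 7 UMIs in the WT-labelled library and -1.55 (-2.24 to -0.91) on 27 UMIs in the KO-labelled library. When only myonuclei with at least 3 *Myh* UMIs and 80% of them from 1 gene were used, *Myf6* had too few UMIs to enter the comparison and *Six4* and *Eya4* still passed.

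*Mef2c* was 1.5-fold apart between *Myh2*- and *Myh4*-main myonuclei in 1 of the libraries, and the difference between the libraries was not tested. In the WT-labelled library it stood at 1569 CPM in *Myh4*-main, 2253 in *Myh1*-main and 2888 in *Myh2*-main myonuclei, a log2 ratio of *Myh2*-main over *Myh4*-main of 0.88 (0.81 to 0.95). In the KO-labelled library the values were 1451, 1324 and 1721 CPM and the ratio was 0.25 (0.17 to 0.32). *Mef2a* and *Mef2d* differed by less than 1.5-fold between *Myh2*-main and *Myh4*-main myonuclei in both libraries.

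**Figure D2:**
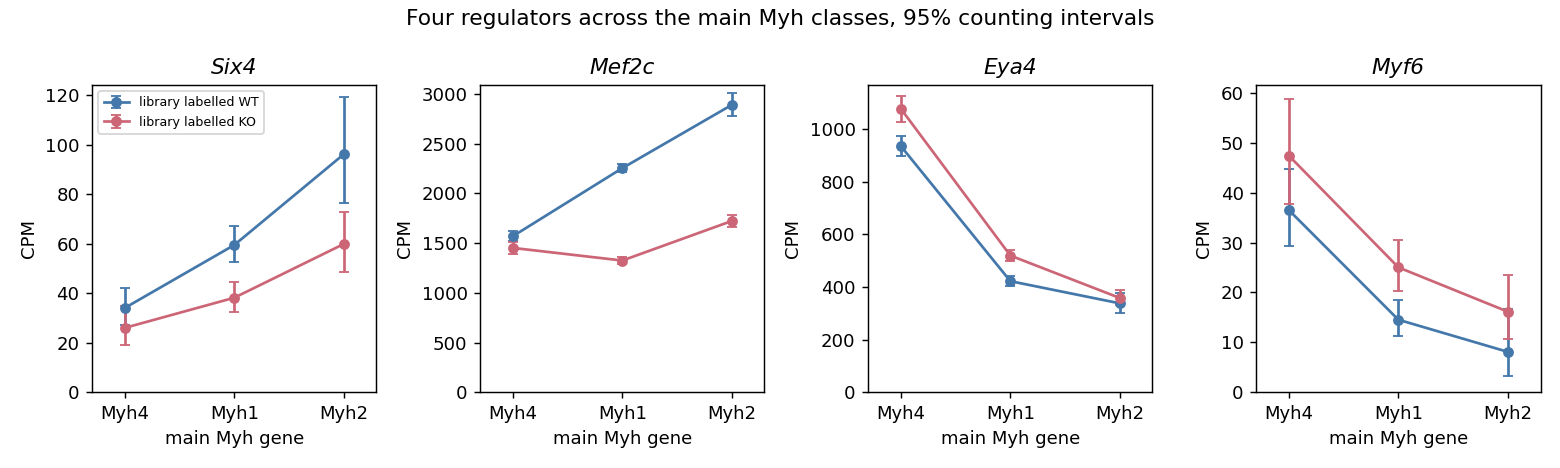
CPM (vertical axes from 0) of *Six4*, *Mef2c*, *Eya4* and *Myf6* in *Myh4*-, *Myh1*- and *Myh2*-main myonuclei, with a line per library and exact Poisson 95% intervals. *Six4* goes up from 34.1 to 96.0 CPM and *Eya4* down from 935 to 338 CPM in the WT-labelled library, and both keep the direction in the KO-labelled library, in which *Mef2c* is flatter.

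Between the libraries, 1 of the 7 regulators with at least 200 UMIs in myonuclei was 1.5-fold or more apart after the median of all genes was taken off, namely *Eya1*, higher in the KO-labelled library. Over all 6989 genes tested, 9.53% were higher and 5.71% lower by this rule, so 1 of 7 is near the background. The median log2 ratio of these genes was -0.15, and relative ratios are given after it is taken off. The median relative ratio was 0.25 over the 7 regulators, from -0.48 to 1.09, and 4 of them were above 0.

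In myonuclei *Eya1* had 1952 UMIs with the WT label and 4084 with the KO label, or 220 CPM (211 to 230) and 423 CPM (410 to 436). The log2 ratio of 0.94 (0.86 to 1.02) became 1.09 with the median taken off. It was 0.40 (0.22 to 0.58) in *Myh4*-main, 1.13 (1.02 to 1.24) in *Myh1*-main, 0.94 (0.71 to 1.17) in *Myh2*-main myonuclei and 0.97 (0.73 to 1.22) in those without a *Myh* UMI. Over 5 myonuclear clusters (100 or more nuclei per library) it ran from -0.01 (-0.20 to 0.18) to 1.59 (1.46 to 1.71), so 1 cluster showed no difference beyond counting error. Thinned to 1000 UMIs, 17.6% (16.1 to 19.2) and 30.6% (29.0 to 32.3) of myonuclei had an *Eya1* UMI, against 0.748% and 0.746% of FAP-like nuclei. Without thinning the shares were 43.9% and 53.6% of myonuclei and 1.86% and 2.44% of FAP-like nuclei.

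*Mef2c* was lower in the KO-labelled library, with a log2 ratio of -0.63 (-0.66 to -0.60) in myonuclei. Relative to the median it was -0.48, which is short of 1.5-fold. On the plain ratio of CPM it passed. The plain log2 ratio was -0.77 (-0.81 to -0.72) in *Myh1*-main and -0.75 (-0.82 to -0.67) in *Myh2*-main myonuclei. The medians of all genes in these classes were -0.15 and -0.12. In *Myh4*-main myonuclei the plain ratio was -0.11 (-0.19 to -0.04). The median of all genes there was -0.13, so *Mef2c* was not below the median gene in that class. *Mef2c* was also lower in endothelial-like (920 and 677 CPM), pericyte- or smooth muscle-like (617 and 402 CPM) and macrophage-like nuclei (760 and 509 CPM). The free myonuclear RNA predicted in those nuclei was between 33.6 and 90.2 CPM.

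*Myf6* was just under the fold over all myonuclei. Its log2 ratio of 0.43 (0.16 to 0.70) became 0.58 with the median taken off, just short of 1.5-fold. Its plain CPM was more than 1.5-fold apart in *Myh1*-main (14.5 and 25.0 CPM) and *Myh2*-main myonuclei (8.10 and 16.2 CPM). The *Myh2*-main values rest on 7 and 27 UMIs. In *Myh4*-main myonuclei it was less than 1.5-fold apart (36.5 and 47.4 CPM). Over the 5 clusters the plain log2 ratio of *Myf6* ran from -0.47 (-1.25 to 0.30) to 1.44 (0.77 to 2.14). *Six4* was lower in the KO-labelled library, with a log2 ratio of -0.49 (-0.70 to -0.29) and -0.35 relative to the median. Its plain ratio was below 0 in 5 of the 5 clusters, from -1.14 (-2.13 to -0.23) to -0.07 (-0.70 to 0.57). In the cluster at -0.07 the median of all genes was -0.14, so *Six4* was not below it there. *Eya4* stood at 0.22 (0.17 to 0.28), *Mef2d* at 0.10 (0.03 to 0.17) and *Mef2a* at -0.17 (-0.24 to -0.11). Relative to the median these ratios were 0.37, 0.25 and -0.03. *Myod1* had 40 and 28 UMIs in myonuclei and *Myog* 23 and 37, and the interval of each log2 ratio included 0.

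**Figure D3:**
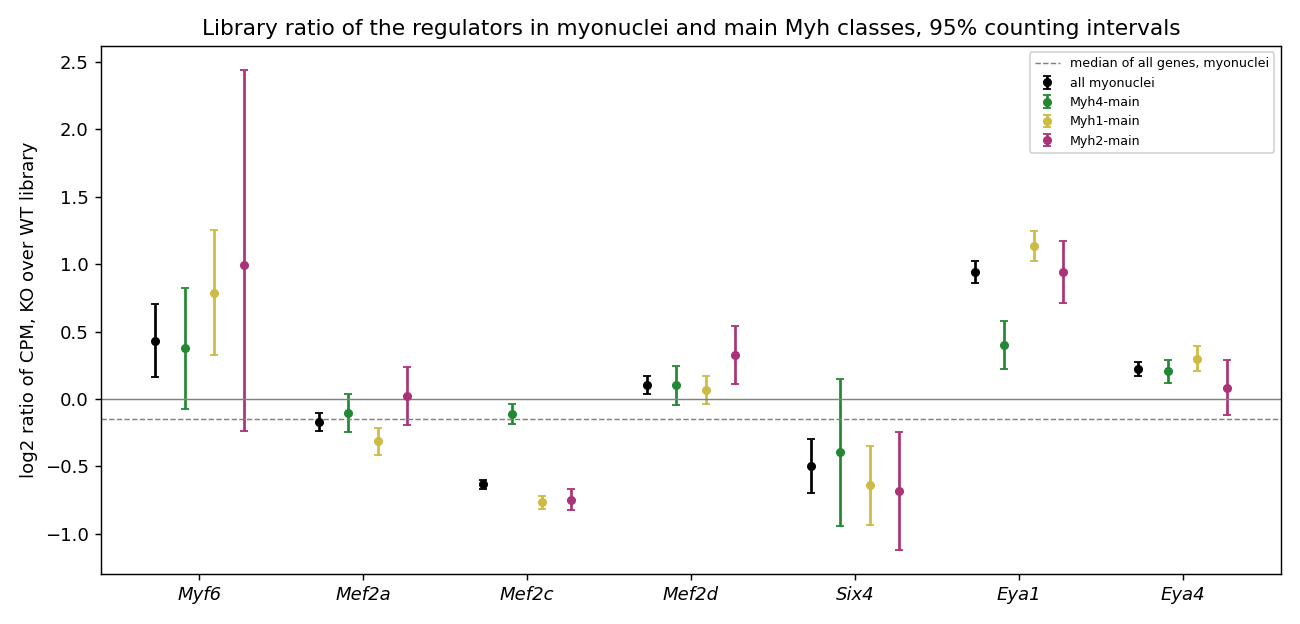
Log2 ratio of CPM, KO-labelled over WT-labelled library, for the 7 regulators with enough UMIs, in all myonuclei and in each main *Myh* class. Bars are exact 95% counting intervals and the dashed line is the median of all genes at -0.15. *Eya1* and *Mef2c* lie farthest from it in *Myh1*-main myonuclei, at 1.13 and -0.77, and nearer in *Myh4*-main myonuclei.

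Outside muscle, the MEF2 genes were found in most classes. *Mef2a* stood at 1125 and 1058 CPM in macrophage-like, 953 and 1069 CPM in pericyte- or smooth muscle-like and 800 and 964 CPM in endothelial-like nuclei, above its level in myonuclei. *Eya4* and *Eya1* were also found in tenocyte-like nuclei, the tendon cells, at 621 and 746 CPM and at 286 and 110 CPM, where predicted free myonuclear RNA gave 38.7 and 46.0 CPM of *Eya4* and 14.6 and 28.5 CPM of *Eya1*. *Eya1* in endothelial-like nuclei stood at 107 CPM (77.2 to 145) and 67.0 CPM (39.7 to 106). In FAP-like nuclei *Eya4* stood at 35.9 CPM (25.5 to 49.1) and 29.9 CPM (18.5 to 45.7), where predicted free myonuclear RNA gave 9.93 and 24.1 CPM, so the KO-labelled level is not above it beyond counting error.

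Of 26 relatives, partners and upstream factors, 11 had at least 200 UMIs in myonuclei. *Tead4*, a TEAD factor that partners with Vestigial-like proteins, was higher in the KO-labelled library, at 9.70 and 30.7 CPM, a relative log2 ratio of 1.81 (1.46 to 2.17). *Dach2*, a cofactor in the network of PAX and EYA proteins, was lower, at 31.5 and 4.45 CPM, a relative log2 ratio of -2.67 (-3.17 to -2.21), and *Pax3*, the paired-box factor of embryonic and some adult muscle progenitors, was lower at 24.9 and 11.1 CPM. *Dach2* UMIs of the WT-labelled library were mostly in *Myh1*-main myonuclei, at 53.7 CPM there against 4.96 CPM in the KO-labelled library. The median relative ratio of the 11 was -0.06.

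Of 18 known targets of these factors, 16 had enough UMIs, with 6 higher, 2 lower and 8 within 1.5-fold, and a median relative log2 ratio of 0.46 against 0.00 over all genes, of which 9.53% were higher and 5.71% lower. The higher ones were *Casq2*, the calcium store protein of slow muscle, at 1.97, *Ppargc1a*, the coactivator of mitochondrial genes, at 1.84, *Xirp1* at 1.23, *Myom2* at 1.02, *Hdac9*, a MEF2 repressor, at 0.81, and *Xirp2* at 0.61. The lower ones were *Ckm*, muscle creatine kinase, at -0.84 and *Actn3*, the fast-fiber actinin, at -0.67. *Ppargc1a* stood at 676 and 2178 CPM in myonuclei, and its plain log2 ratio was 0.99 in *Myh4*-main, 1.78 in *Myh1*-main and 1.16 in *Myh2*-main myonuclei. Not every target kept its direction in each class. *Hdac9* stood at 151 and 296 CPM in *Myh4*-main but at 456 and 413 CPM in *Myh2*-main myonuclei. *Xirp2* stood at 710 and 594 CPM in *Myh4*-main but at 763 and 1057 CPM in *Myh2*-main myonuclei. *Actn3* stood at 407 and 234 CPM in *Myh4*-main but at 18.5 and 27.5 CPM in *Myh2*-main myonuclei. The part of the class mix in these values was not tested. Of the 7 regulators, 6 were within 1.5-fold, as were 5924 of all 6989 genes tested, so this count is near the background.

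Over the fiber classes, 1 of 6 relatives with enough UMIs, *Tead1*, was 1.5-fold higher in *Myh2*-main than in *Myh4*-main myonuclei in both libraries, at 852 against 319 CPM and 763 against 232 CPM. Of the 16 targets, 5 were higher and 6 lower, against 12.8% and 11.3% of all genes. Those higher in *Myh2*-main myonuclei were *Hrc*, *Xirp1*, *Ppargc1a*, *Casq2* and *Mb* (myoglobin, at 201 against 26.1 CPM and 138 against 23.7 CPM). Those lower were *Ckm*, *Chrnb1*, *Myom2*, *Aldoa*, *Actn3* and *Pvalb* (parvalbumin, the calcium buffer of fast fibers, at 13.9 against 251 CPM and 29.3 against 176 CPM). *Aldoa* has 2 rows in the matrices and ENSMUSG00000030695 was used.

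Over MuSC-like nuclei and myonuclei, 12 of 19 relatives were 2-fold or more higher in MuSC-like nuclei in both libraries and *Dach2* was lower, against 19.4% higher and 15.4% lower over all genes. The 12 include *Pax7*, a marker used to name these nuclei, so its place in the count was fixed in advance. They also include *Myf5* and *Pax3*, which were listed as genes of the stem cell end. Of the 12, *Mef2b* and *Id3* rest on 2 UMIs each in MuSC-like nuclei of the KO-labelled library, with intervals that include 0. *Dach2* had 0 UMIs in MuSC-like nuclei, and in the KO-labelled library its level in myonuclei is under the floor of 3 UMIs, so no fold can be given there. The higher ones include *Msc*, a bHLH repressor of myogenesis, with 36 and 22 UMIs in MuSC-like nuclei against 2 and 4 in all myonuclei, and *Vgll3*, a TEAD cofactor, at 374 against 10.7 CPM and 199 against 13.9 CPM. The E proteins *Tcf4* and *Tcf12*, the dimer partners of the bHLH factors, were also higher, *Tcf4* at 1646 against 504 CPM and 1909 against 473 CPM. *Myf5* stood at 58.7 against 3.84 CPM and at 36.6 against 6.32 CPM. Of 16 targets, 14 were lower in MuSC-like nuclei by the same rule, *Xirp1* and *Casq2* on 0 UMIs in both libraries (with 3 UMIs in place of 0, *Casq2* is short of 2-fold with the WT label), and *Chrnb1*, a subunit of the acetylcholine receptor, was higher, at 205 against 27.3 CPM and 188 against 33.8 CPM.

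**Figure D4:**
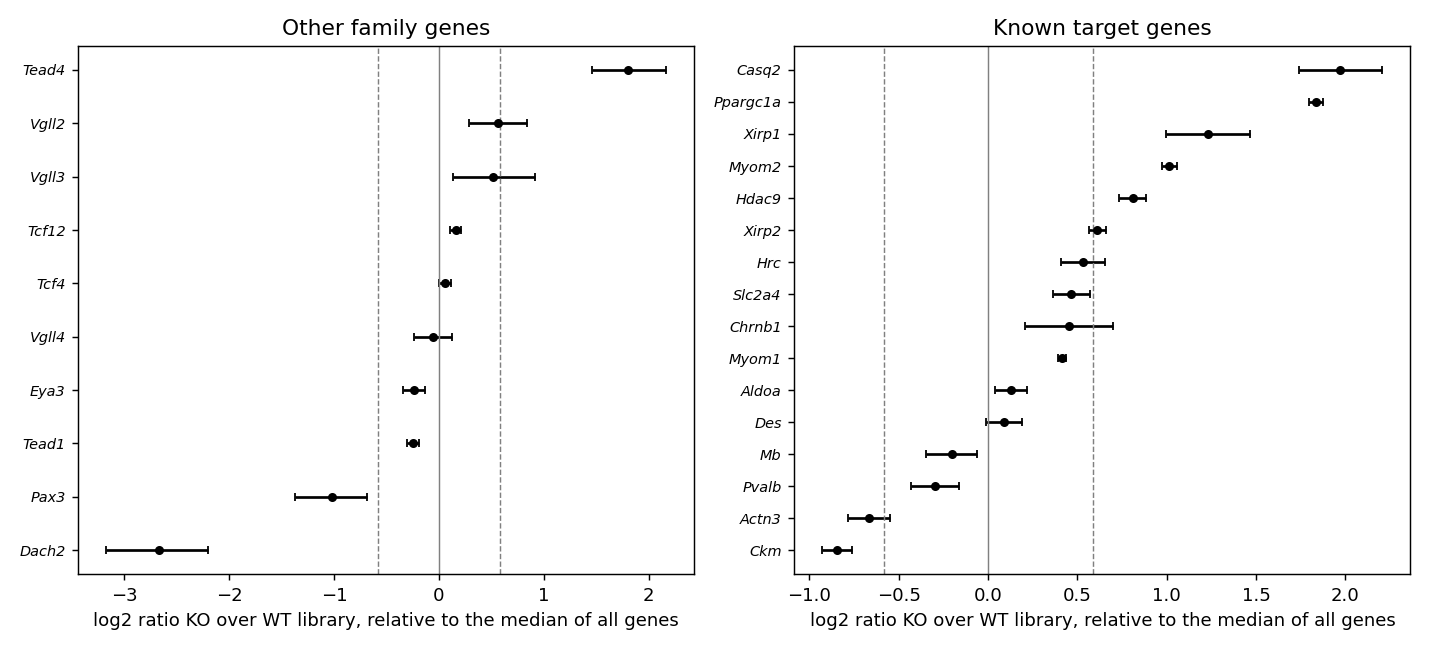
Log2 ratio of CPM in myonuclei, KO-labelled over WT-labelled library, relative to the median of all genes, for 10 of the 11 relatives and the 16 targets with enough UMIs. Bars are 95% counting intervals and dashed lines mark 1.5-fold. *Tead4* at 1.81 and *Dach2* at -2.67 are the outermost relatives, and *Casq2* at 1.97 and *Ckm* at -0.84 the outermost targets.

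The genes whose levels ran most like each regulator were taken over 14 class-by-library sums with at least 100 nuclei, as Pearson's r of log2(CPM + 10), which is a description because sums of 1 library share their depth and their free RNA. *Eya4* ran with *Nt5dc3* (r = 0.98), *Pde4d* and *Rragb*, *Six4* with *Supv3l1* (r = 0.97), *Chpt1* and *Fh1*, and *Mef2c* with *Atxn1* (r = 0.96), *Ptp4a3* and *Nfe2l1*. *Eya1* ran with *Taf4b* (r = 0.95), *Fam120c* and *Foxn3*, *Mef2a* with *Atp8a1* (r = 0.95), *Dgkd* and *Arhgap26*, and *Mef2d* with 2500002B13Rik (r = 0.95), *Palld* and *Tob1*.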

How the data were processed

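The authors made the UMI counts with Cell Ranger 7.0.0 on mm10 (per the labels) and deposited them as raw counts per gene and barcode, not normalized, 1 matrix for each library. The labels name a 10x Multiome kit and the methods a 10x 3′ gene expression kit. Whether intronic reads were counted is not given in the sources used here.

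Nuclei were kept if they had 200 to 5000 genes and mitochondrial UMIs of up to 5%, and the highest Scrublet scores (scanpy 1.11.5) were removed at 0.8% per 1000 barcodes (115 and 134 nuclei). Libraries were integrated and clustered in Seurat 5.3.0 (2000 variable genes, 30 components, resolution 0.5) without the 9 regulators and without 1324 genes that were 2-fold apart between the libraries in myonuclei. Clusters with at least 30000 CPM of myonuclear markers were called myonuclei, a limit set after the clusters were seen. UMIs were summed per class and library. Levels carry exact Poisson, shares exact Clopper-Pearson and log2 ratios exact conditional 95% intervals, for counting error only. A count of 0 allows up to 3 counts. The code of the comparison was run on simulated Poisson counts. These hold no spread between mice, libraries or nuclei, so that run says nothing about such spread. Identifiers were matched to GENCODE M21 (32158 of 32285). DoubletFinder, Harmony and the Wilcoxon test over nuclei, which the study used, were not repeated.

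The regulators and lists were chosen with earlier results of these data known. All 9 regulators are named, with listed genes past 1.5-fold between the libraries, genes a result turns on, and the 3 most alike genes of each regulator with at least 500 UMIs. 1 gene of the list of relatives is counted but not reported by name here.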

Additional observations from a re-analysis of the deposited data

Results flagged for a closer look

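In 3 regulators the ratio of the KO-labelled library over the WT-labelled library had counting intervals on opposite sides of 0 in different classes. These ratios are plain, with no median taken off. The difference between classes was not tested, since there is 1 library per genotype, and 86 such intervals were looked at, 17 of them above and 18 below 0.

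*Eya1* was higher in the KO-labelled library in myonuclei (log2 ratio 0.94), in *Myh4*-main (0.40), *Myh1*-main (1.13) and *Myh2*-main myonuclei (0.94) and in those without a *Myh* UMI (0.97), and lower in tenocyte-like nuclei (-1.38), where it had 46 and 16 UMIs.

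*Mef2a* was higher in FAP-like (0.45) and endothelial-like nuclei (0.27) and lower in myonuclei (-0.17), *Myh1*-main myonuclei (-0.31) and MuSC-like nuclei (-0.80). The median of all genes in myonuclei was -0.15. Relative to it *Mef2a* stood at -0.03 there, close to the median gene.

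*Mef2d* was higher in myonuclei (0.10), *Myh2*-main myonuclei (0.32) and tenocyte-like nuclei (0.85) and lower in pericyte- or smooth muscle-like nuclei (-0.83).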

How the results depend on the processing

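No paired analysis was possible because there is 1 library per genotype. The count of regulators past 1.5-fold between the libraries, 1 in the main analysis, was 2 without doublet removal, with at most 3000 genes, with means over nuclei and with the main *Myh* classes weighted equally (*Myf6* and *Eya1* in each), 2 on the plain ratio of CPM (*Eya1* higher, *Mef2c* lower) and 5 with the fold lowered to a difference of 25%. *Eya1* was above 0 in all 16 settings, from 0.94 to 1.19, and *Mef2c* and *Six4* below 0 in all 16. *Mef2a* was above 0 in 1 of 16. Among relatives, the count of 3 became 5 at a minimum of 50 UMIs and 0 at 500 UMIs, at which fewer genes are tested. The count between MuSC-like nuclei and myonuclei, 4, became 2 when 200 UMIs were required, a choice made once the data had been seen. The other counts stayed within 1.5 times, and no ratio with a value changed sign for a regulator past its fold. *Myog* has no ratio of MuSC-like nuclei over myonuclei with the WT label at resolution 1.0, where it had 0 UMIs in 164 MuSC-like nuclei. Without a mitochondrial limit, added nuclei were classed by a 1% share of myonuclear marker UMIs. Shares of nuclei with a UMI moved with thinning in 110 of 207 cases without it and in 130 of 207 at 500 UMIs. Depth limits *Myod1* and *Myog*, and 1 library per genotype limits every comparison of the labels.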
